A study of Mus musculus with 6 samples.

Results

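Lipid-associated macrophages are macrophages that take up, store and break down large amounts of lipid, and they are known from adipose tissue, atherosclerotic plaques and the brain. They are marked by TREM2, a surface receptor for lipids and lipoproteins that signals through the adaptor DAP12, together with GPNMB, scavenger receptors and fatty acid binding proteins. In bone marrow, macrophages support stem cells and red cell formation and engulf dying cells, whose membranes are a lipid load of their own. The 10 genes described here are Gpnmb, Trem2, Cd9, Cd36, Fabp4, Fabp5, Lpl, Acsl1, Cd68 and Aif1, a set of genes of lipid-laden TREM2 macrophages, out of 39017 gene identifiers in the count table. All 10 were matched by symbol to 1 identifier each, and all 10 passed the filter on low counts. The set was chosen by gene function and with the old to young differences of these same libraries in view, Gpnmb and Cd36 included. Their differences between the ages are therefore a description, and no test of them is used as evidence.

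RNA sequencing was done on adherent bone marrow cells of wild-type BALB/c mice, labelled as macrophages carrying F4/80 and CD169. The 2 groups were old mice, more than 78 weeks of age, with 3 libraries, and young mice, 3 weeks of age, with 3 libraries. The cells came from crushed limb bones, were expanded in serum-rich medium after the floating cells had been removed, and each library was made from 10000 of them. Whether each library stands for its own animal is not stated, and the spread between replicates may be technical.

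Total counts ranged from 36136137 to 43367734 in old libraries and from 34391206 to 35813492 in young ones. Of 15567 genes tested, 1640 (10.5%) differed between the ages at an adjusted p under 0.05 with edgeR, 909 (5.84%) higher and 731 (4.70%) lower in old libraries. All 15 markers of macrophages, a list with Adgre1 for F4/80 and Siglec1 for CD169, were detected in all 6 libraries, and their summed level was 4901 to 5287 CPM (counts scaled to library size) in old and 8947 to 10598 CPM in young libraries. Markers of stromal and bone-forming cells were more abundant still, with sums of 24267 to 30607 CPM in old libraries and of 32401, 36866 and 71830 CPM in young ones. The highest of these was young replicate 3, which stood apart from the other libraries on the second principal component. The cultures were thus mixed, and in such bulk RNA fewer cells of a type and less RNA per cell cannot be told apart. In the following, levels are CPM, and the log2 fold change is old over young with its standard error (SE).

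Gpnmb, Fabp4, Cd36 and Lpl had higher levels in every old library than in any young one, with log2 fold changes from 0.96 to 1.94. Cd9 and Fabp5 were also higher in every old library, by small amounts. Trem2 itself and Acsl1 had overlapping levels, and Cd68 and Aif1, the general macrophage genes of the set, were lower in every old library. The signs of Trem2, Acsl1 and Cd68 depend on the scaling, as described further on.

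Gpnmb, a transmembrane glycoprotein made by lipid-laden and lysosome-stressed macrophages and by osteoclasts, had the largest change of the set. The gene (ENSMUSG00000029816) spans chr6:49036546-49070929 on the plus strand of the mm10 build, which all gene positions here use. It stood at 4727, 4778 and 4492 CPM in old replicates 1, 2 and 3, against 896, 1272 and 1468 CPM in young replicates 1, 2 and 3. The means were 4666 ± 153 CPM in old and 1212 ± 291 CPM in young libraries (SD, n = 3 each), a log2 fold change of 1.94 (SE 0.18). The old libraries lay close together, with a coefficient of variation of 3.27%, while the young ones varied by 24.0%. Across all tested genes the median coefficient of variation was 9.46% in old and 14.9% in young libraries. The log2 fold change ran from 1.77 without young replicate 1 to 2.11 without young replicate 3. Of all tested genes, 3.12% had a change at least as large in either direction.

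Trem2, the receptor after which these macrophages are named, had 211, 191 and 166 CPM in old replicates 1, 2 and 3, against 184, 213 and 184 CPM in young replicates 1, 2 and 3. The gene (ENSMUSG00000023992) lies at chr17:48346401-48354147 on the plus strand. The ranges overlap, and neither age has the higher level throughout. Means were 189 ± 22.6 CPM in old and 194 ± 17.2 CPM in young libraries (SD, n = 3 each), a log2 fold change of -0.03 (SE 0.11). Its sign depended on the libraries used, with values from -0.12 without old replicate 1 to 0.05 without old replicate 3.

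Cd36, a scavenger receptor that takes up oxidised lipoproteins and long-chain fatty acids, had 608, 557 and 567 CPM in old replicates 1, 2 and 3. In young replicates 1, 2 and 3 it had 284, 335 and 262 CPM. It (ENSMUSG00000002944) spans chr5:17781690-17888801 on the minus strand, a locus with several annotated starts. Every old library was above every young one, and the log2 fold change was 0.97 (SE 0.11), from 0.90 to 1.08 on leaving out 1 library. Cd9, a tetraspanin that organises membrane proteins into clusters, had 576, 528 and 567 CPM in old replicates 1, 2 and 3, against 482, 435 and 462 CPM in young replicates 1, 2 and 3. Cd9 (ENSMUSG00000030342) lies at chr6:125460266-125494791 on the minus strand. The gap between the ages was small, with a log2 fold change of 0.28 (SE 0.08). Of the exon length of Cd9, 10.7% is shared with the gene model Gm26728. The kit used does not mark strand, so reads there cannot be told apart by strand.

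**Figure D1:**
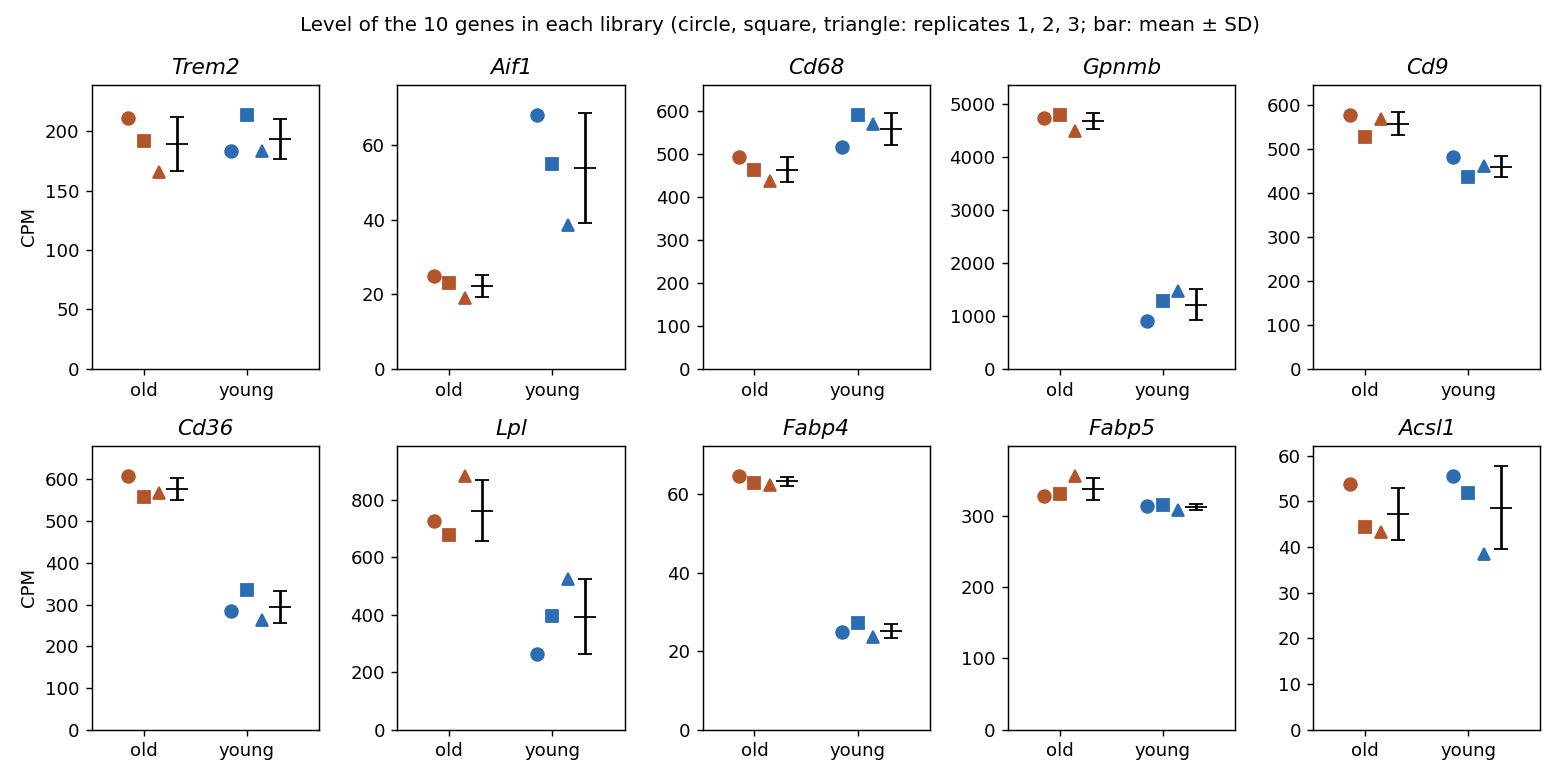
Each panel shows 1 of the 10 genes, with its level in CPM on a linear axis from 0, for 3 old libraries on the left and 3 young libraries on the right; symbols are single libraries and bars are mean ± SD. Gpnmb lies between 4492 and 4778 CPM in old libraries, above the highest young value of 1468 CPM, while the Trem2 values of the ages overlap.

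The promoters of 4 genes are shown because these genes cover the 3 behaviours seen: Gpnmb and Cd36 higher, Trem2 overlapping and Aif1 lower in old libraries. The sequences are RefSeq's, from the GRCm38.p6 assembly, the bases before the annotated start, 5′ to 3′ on the gene's strand. The windows are chr6:49036268-49036517 on the plus strand for Gpnmb, chr5:17835897-17836146 on the minus strand for Cd36, chr17:48346151-48346400 on the plus strand for Trem2, and chr17:35176069-35176302 on the minus strand for Aif1. Capitals mark AGGTCA, the half-site of nuclear receptors such as PPARG and RXRA, and GAGGAA, a core recognised by ETS factors such as PU.1, on either strand. The Gpnmb window lies before the start that RefSeq lists, and ends short of the gene start of chr6:49036546 given above. The Cd36 window is the start that RefSeq lists, which lies inside the longer gene model. The Aif1 window leaves out the bases nearest the start, which GENCODE counts as exon.
Gpnmb: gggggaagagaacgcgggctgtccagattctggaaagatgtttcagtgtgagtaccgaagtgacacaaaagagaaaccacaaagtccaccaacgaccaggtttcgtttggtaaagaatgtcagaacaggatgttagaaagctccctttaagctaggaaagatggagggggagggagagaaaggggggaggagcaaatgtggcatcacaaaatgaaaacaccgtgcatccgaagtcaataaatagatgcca
Cd36: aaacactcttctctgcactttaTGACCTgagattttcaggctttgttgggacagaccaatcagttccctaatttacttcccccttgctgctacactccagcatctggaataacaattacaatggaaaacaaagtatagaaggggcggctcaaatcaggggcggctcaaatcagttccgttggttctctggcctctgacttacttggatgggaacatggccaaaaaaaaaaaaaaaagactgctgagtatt
Trem2: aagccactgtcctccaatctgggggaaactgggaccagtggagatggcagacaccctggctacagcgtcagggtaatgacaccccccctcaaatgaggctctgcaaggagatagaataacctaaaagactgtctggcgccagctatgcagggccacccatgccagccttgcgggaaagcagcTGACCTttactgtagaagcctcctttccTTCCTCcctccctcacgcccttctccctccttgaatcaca
Aif1: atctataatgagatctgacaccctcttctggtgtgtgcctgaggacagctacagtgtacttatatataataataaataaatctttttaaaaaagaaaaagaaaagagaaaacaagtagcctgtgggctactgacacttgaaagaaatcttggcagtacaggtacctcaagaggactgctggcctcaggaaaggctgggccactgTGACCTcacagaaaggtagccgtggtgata

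Entries were found for 7 of the 10 genes, and for Acsl1 there were 2 starts. Of 32851 mouse promoter windows of 250 bases, 14.0% hold AGGTCA on either strand, and the windows of Cd36, Trem2 and Aif1 do. GAGGAA is in 23.3% of windows, and in those of Trem2, Cd68 and Aif1, in Aif1 within the bases left out above. The AP-1 motif TGACTCA, in 4.46% of windows, is in that of Cd68 at 2 places. The E-box CACGTG, the M-box cores TCATGTG and TCACGTG, the TATA motif TATAAA and 2 AGGTCA half-sites in tandem with 1 base between them had no match in any of the 7 genes' windows. Their shares among all windows are 6.02%, 3.25%, 3.13%, 12.4% and 0.0335%. None of the motifs searched was in the Gpnmb window, which says only that these letters are not in those 250 bases.

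Among the lipid-handling members, Lpl, the secreted enzyme that releases fatty acids from lipoprotein triglycerides, had 728, 677 and 882 CPM in old replicates 1, 2 and 3. The gene (ENSMUSG00000015568) spans chr8:68880491-68907448 on the plus strand. It had 262, 394 and 523 CPM in young replicates 1, 2 and 3, so that the ages did not overlap but the young libraries spread over a 2-fold range. The log2 fold change was 0.96 (SE 0.24), 0.73 without young replicate 1 and 1.22 without young replicate 3. In both ages replicate 3 had the highest Lpl level and also the highest sum of stromal markers. Every old library had more Lpl and a lower stromal sum than any young one. The largest parts of that sum were Col1a1, Col1a2 and Col3a1, and the 14 stromal markers did not all move with it. At an adjusted p under 0.05 with edgeR, Pdgfra and Cxcl12 were higher in old libraries and 5 of the 14 were lower. The part of stromal cells in the Lpl values was not tested.

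Fabp4, a fatty acid carrier of macrophages, adipocytes and endothelium, was the most evenly separated of the set. It had 64.6, 63.0 and 62.4 CPM in old replicates 1, 2 and 3, against 24.9, 27.1 and 23.5 CPM in young replicates 1, 2 and 3. Means were 63.3 ± 1.14 CPM in old and 25.2 ± 1.79 CPM in young libraries (SD, n = 3 each), a log2 fold change of 1.33 (SE 0.09), from 1.29 to 1.38 on leaving out 1 library. Its relative Fabp5, the epidermal-type carrier that macrophages also make, had 328, 331 and 356 CPM in old replicates 1, 2 and 3, against 314, 316 and 309 CPM in young replicates 1, 2 and 3. Fabp5 levels differed by a log2 fold change of 0.11 (SE 0.07). Counts of Fabp5 per kilobase of transcript were 4.61, 4.78 and 5.18 times those of Fabp4 in old libraries, and 11.4, 10.6 and 11.9 times in young ones.

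Both genes lie on the same chromosome, Fabp4 (ENSMUSG00000062515) at chr3:10204088-10208576 on the minus strand and Fabp5 (ENSMUSG00000027533) at chr3:10012548-10016607 on the plus strand, and their coding sequences are related, so a stretch of each is printed to show how far reads can separate them. Their coding sequences of 399 and 408 bases, from GENCODE release M21, align with 61.2% identity, and the longest run of identical bases is 12, against a read length of 100. The lines give the aligned stretch around that run, coding bases 85 to 144 of Fabp4 and 91 to 144 of Fabp5, counted from 1 at the start codon. Capitals mark bases that differ from the other gene or have no partner in it.
Fabp4: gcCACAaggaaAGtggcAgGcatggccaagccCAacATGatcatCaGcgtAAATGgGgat
Fabp5: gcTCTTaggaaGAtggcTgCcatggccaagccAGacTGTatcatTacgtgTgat

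Acsl1, the synthetase that attaches coenzyme A to long-chain fatty acids, had 53.8, 44.4 and 43.3 CPM in old replicates 1, 2 and 3. It had 55.5, 51.9 and 38.5 CPM in young replicates 1, 2 and 3. Acsl1 (ENSMUSG00000018796) spans chr8:46471037-46536051 on the plus strand. The ranges overlapped almost fully, and the log2 fold change was -0.04 (SE 0.16), from -0.19 without young replicate 3 to 0.06 without young replicate 1. Of its exon length, 9.91% is shared with Gm45244.

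Cd68, the lysosomal membrane glycoprotein used to stain macrophages, had 493, 463 and 437 CPM in old replicates 1, 2 and 3, against 517, 590.5 and 569.7 CPM in young replicates 1, 2 and 3. The gene (ENSMUSG00000018774) lies at chr11:69664213-69666153 on the minus strand. All old values were below all young ones, with a log2 fold change of -0.27 (SE 0.09). Aif1, which encodes the actin-binding protein IBA1, had 24.9, 23.0 and 19.0 CPM in old replicates 1, 2 and 3, against 68.0, 55.0 and 38.7 CPM in young replicates 1, 2 and 3. Aif1 (ENSMUSG00000024397) lies at chr17:35170991-35176068 on the minus strand. The young libraries differed among themselves, with young replicate 3 lowest, and the log2 fold change of -1.27 (SE 0.21) was -1.07 without young replicate 1 and -1.46 without young replicate 3.

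Levels were compared between genes after division by transcript length. This was the longest annotated principal transcript for 6 of the 10 genes and the longest annotated transcript for the others. Where the cells make a shorter transcript, the level per kilobase and the rank come out too low. Trem2 was divided by 4.78 kilobases, and the transcript made in these cells was not determined. On this scale Gpnmb led the set in old libraries with 1261 ± 41.2 CPM per kilobase, followed by Cd9 (453 ± 21.0), Cd68 (377 ± 23.1), Fabp5 (343 ± 15.7), Lpl (185 ± 26.0), Cd36 (170 ± 7.89), Fabp4 (70.7 ± 1.27), Trem2 (39.6 ± 4.73), Aif1 (25.5 ± 3.42) and Acsl1 (8.31 ± 1.01), all as mean ± SD in CPM per kilobase with n = 3. Neighbours in this order whose ranges overlapped were Cd68 with Fabp5 and Lpl with Cd36. In young libraries Cd68 led with 455 ± 30.8 CPM per kilobase, before Cd9 with 374 ± 18.9 and Gpnmb with 327 ± 78.6. Fabp5 followed in young libraries with 317 ± 3.95 CPM per kilobase, and the ranges of Cd9, Gpnmb and Fabp5 overlapped from each to the next. Lpl (95.5), Cd36 (86.4), Aif1 (61.6), Trem2 (40.5), Fabp4 (28.1) and Acsl1 (8.57) came after them in young libraries, all as mean CPM per kilobase, and the ranges overlapped from each of these to the next between Lpl and Trem2. Gpnmb held rank 23 in old and rank 151 in young libraries among all tested genes on this scale. Fabp4 held rank 1189 in old and 3062 in young libraries, and Aif1 rank 3328 in old and 1405 in young libraries. Trem2 kept nearly the same place, rank 2203 in old and 2168 in young libraries. In each old library Gpnmb was 3.19 to 3.43 times as abundant per kilobase as Cd68, and 0.576 to 0.857 times in young libraries.

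The fit across all genes placed 4 of the 10 genes (Gpnmb, Cd36, Fabp4 and Lpl) past the threshold as higher in old libraries, where the background is 5.84%, and 1 (Aif1) as lower, where it is 4.70%. Since differences between the ages led to the list, nothing is read from these counts. Ranges of the ages were apart for 6 genes in the higher and 2 in the lower direction, and for 15.9% and 14.3% of all tested genes (30.2% in either direction). Without young replicate 3, Cd9 also passed. Lpl passed in that case as well, and did not pass on leaving out any other library. Aif1 did not pass without old replicate 2.

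All of these values rest on scaling to the whole library, in which macrophage markers were less abundant in old libraries. As another reading, counts were scaled to the summed counts of the 15 macrophage markers, of which Lyz2 gave the largest part. This moved the median of all tested genes from -0.01 to 0.92 on the log2 scale. The log2 fold changes then were 2.89 for Gpnmb, 2.26 for Fabp4, 1.91 for Lpl, 1.90 for Cd36, 1.20 for Cd9, 1.04 for Fabp5, 0.90 for Trem2, 0.87 for Acsl1, 0.66 for Cd68 and -0.36 for Aif1. Trem2, Acsl1 and Cd68 thus changed sign under this scaling. Such a scaling shifts the log2 fold changes of all genes by nearly the same amount, so their places relative to the median hardly can change. Under both scalings Gpnmb, Fabp4, Lpl, Cd36, Cd9 and Fabp5 lay above the median, and Trem2, Acsl1, Cd68 and Aif1 below it. That is no further result.

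**Figure D2:**
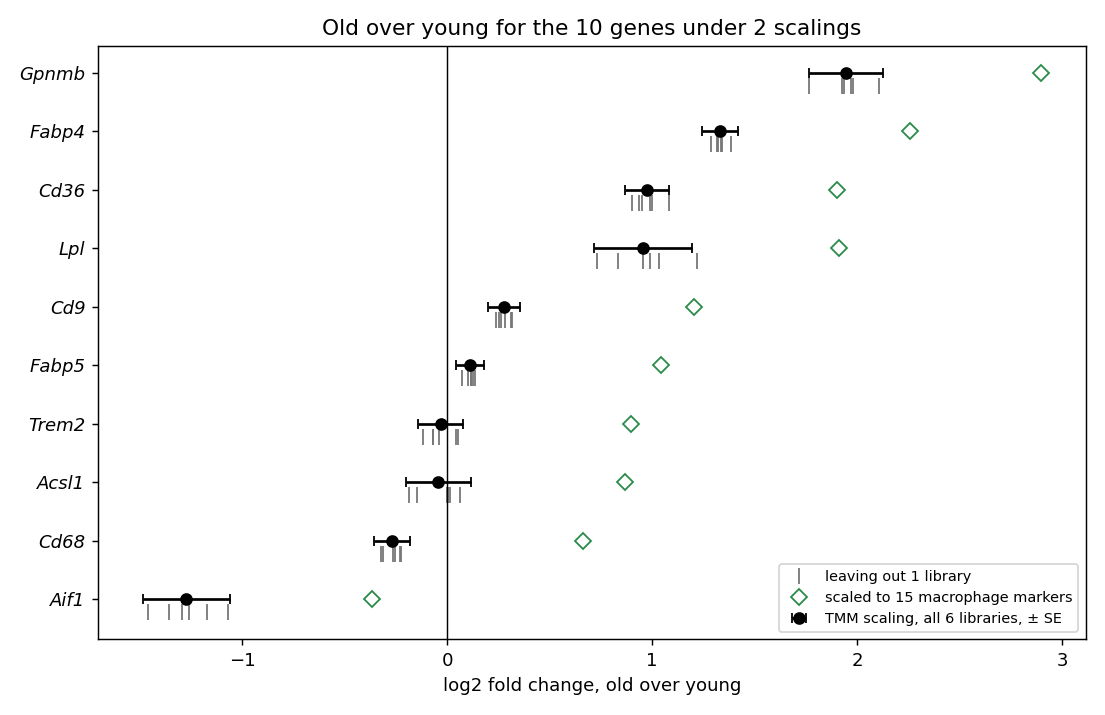
Log2 fold changes of old over young libraries on the horizontal axis for the 10 genes; filled points with bars are the estimate ± SE from 3 old and 3 young libraries, ticks leave out 1 library each, and open diamonds use counts scaled to the 15 macrophage markers. The order runs from 1.94 for Gpnmb to -1.27 for Aif1, and every diamond lies to the right of its point.

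Several cell types other than macrophages make members of this set, and their marker lists were read in the same libraries. Of the 15 macrophage markers, all but Ptprc were lower in old libraries past the threshold (11 to 15 on leaving out 1 library), with a median log2 fold change of -0.91 (0.02 when scaled to themselves). Adipocytes express Fabp4, Lpl, Cd36 and Acsl1. Of their 12 markers, Lep, Retn, Cidea and Pck1 had no count in any library, which allows up to 3 counts per library, and 5 were tested, of which the adrenergic receptor gene Adrb3 passed as higher, with 24.9% of its exon length shared with Gm45470. Without young replicate 3, 2 of the 5 passed, the other being Plin4. Adipoq stood at 1.88 to 3.22 CPM over all 6 libraries. The adipocyte markers summed to 19.8 to 22.9 CPM in old and 13.8 to 18.3 CPM in young libraries. The part of adipocytes in the values of Fabp4, Lpl, Cd36 and Acsl1 was not tested.

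Endothelial cells express Cd36, Fabp4 and Cd9. Their 12 markers summed to 33.9 to 44.3 CPM in old and 30.0 to 51.5 CPM in young libraries, and 2 of the 12, Gpihbp1 and Cldn5, passed as lower. Neither passed without old replicate 1, old replicate 2 or young replicate 2, and 1 of the 12 passed without young replicate 3. Cdh5, the defining cadherin of endothelium, lay between 0.571 and 4.34 CPM in all 6 libraries. Megakaryocytes and platelets carry CD9 and CD36. Their 11 markers summed to 111, 176 and 55.0 CPM in old replicates 1, 2 and 3, against 4.20, 26.0 and 9.06 CPM in young replicates 1, 2 and 3. These sums moved in the same direction as Cd36 and Cd9, and their part in those values was not tested. Of these 11, 4 passed as higher (Itga2b, Gp1ba, Ppbp and Selp), and 8 did without young replicate 2, 2 without old replicate 1 or 2 or young replicate 1, and 1 without young replicate 3. Of the exon length of Selp, 14.1% is shared with other gene models.

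Osteoclasts express Gpnmb. Their 10 markers summed to 586 to 686 CPM in old and 331 to 415 CPM in young libraries. Most of that gap was Atp6v0d2: without it the other 9 summed to 326, 373 and 405 CPM in old replicates 1, 2 and 3, against 334, 274 and 386 CPM in young replicates 1, 2 and 3, and the ages overlapped. Acp5 and Atp6v0d2 passed as higher, and the other tested markers did not pass. Of these others, Ctsk (log2 fold change 0.496), Itgb3 (0.955) and Dcstamp had higher estimates, with Ctsk higher in every old library. Nfatc1 (log2 fold change -0.45), Mmp9 (-0.62), Ocstamp (-0.91) and Oscar (-0.03) had lower estimates, with Nfatc1 and Ocstamp lower in every old library. The median log2 fold change of the tested markers was 0.496. On leaving out old replicate 3, 3 of the 9 tested markers passed as higher and Mmp9 as lower. Leaving out young replicate 3 gave 3 higher, and leaving out young replicate 2 gave Nfatc1 as lower. The part of osteoclasts in the Gpnmb values was not tested. The defining receptor gene Calcr had at most 0.267 CPM in any library.

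Markers of B cells summed to 161 to 291 CPM in old and 57.1 to 72.8 CPM in young libraries. Of the 6 tested, 5 passed as higher (Cd79a, Cd79b, Ms4a1, Ighm and Cd22), and 3 did without any 1 old replicate or young replicate 1. Dendritic cell markers summed to 29.1 to 36.7 CPM in old and 11.9 to 14.4 CPM in young libraries, with Itgax and Ccr7 higher among the 6 tested and Clec9a without a count. On leaving out a library, 1 of the 6 passed, except without old replicate 1, where 2 did. Neutrophil markers summed to 902 to 1696 CPM in old and 1333 to 2318 CPM in young libraries. With edgeR 0 of their 10 genes passed, with 3 at an unadjusted p under 0.05, 2 with DESeq2 and 0 with limma-voom, and S100a8 passed as lower without young replicate 3. Of 14 stromal and bone markers, 2 were higher (Pdgfra and Cxcl12) and 5 lower (Lum, Lepr, Sp7, Runx2 and Ibsp) in old libraries. Leaving out old replicate 1 left 1 lower, young replicate 1 left 2, and either of the other old replicates left 3. The part of these cells in the values of the 10 genes was not tested.

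**Figure D3:**
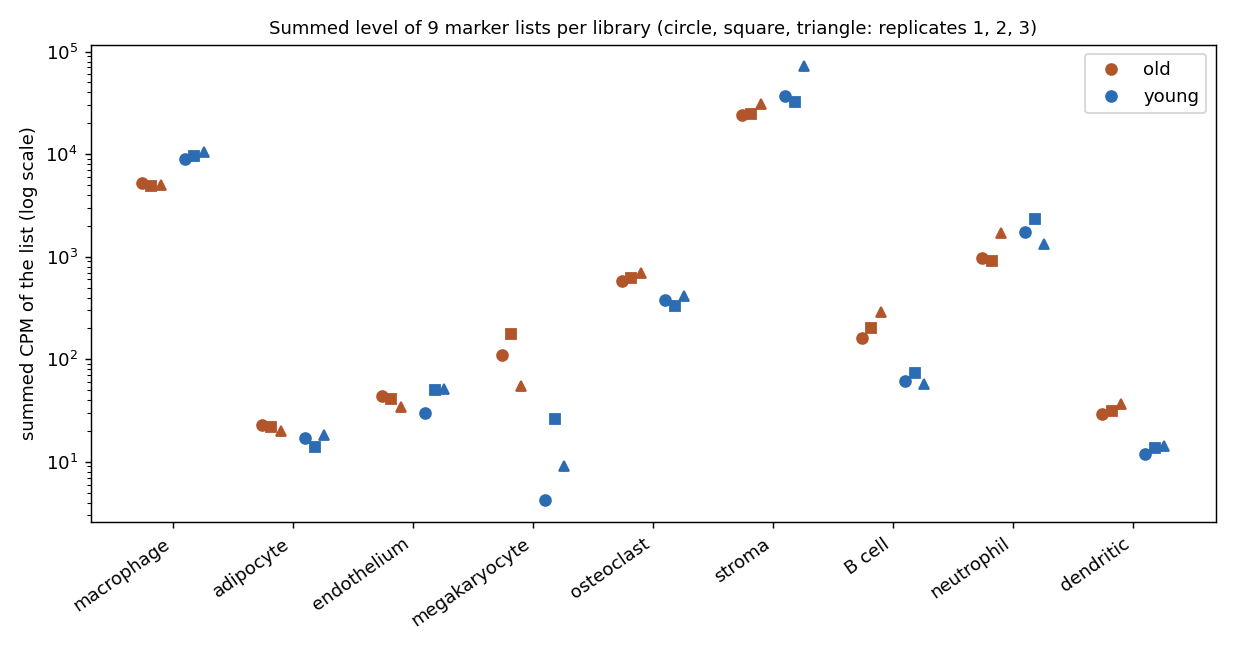
Summed CPM, on a log axis, of 9 marker lists in 3 old libraries (left in each pair) and 3 young libraries (right); each symbol is 1 library. The macrophage sums lie between 4901 and 5287 CPM in old libraries, below the young ones, and young replicate 3 has the highest stromal sum at 71830 CPM.

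The genes that work with these 10 were followed in 15 lists of 168 further genes, of which 153 were tested. Some genes stand in more than 1 list (Lipa, Plin2, Cd63, Apoe, Npc2 and Scarb2). The lists were chosen with earlier results of these data known, so their counts are a description. Over all tested genes, 5.84% were higher and 4.70% lower in old libraries. At an adjusted p under 0.05 with edgeR, 23 of the pathway genes rose and 20 fell in old libraries, and 110 did not pass. Their median log2 fold change was 0.03, against -0.01 for all tested genes. On leaving out 1 library, 10 rose and 9 fell without old replicate 1, 11 rose and 7 fell without old replicate 2, and 15 rose and 10 fell without old replicate 3. Leaving out young replicate 1 left 12 that rose, and leaving out young replicate 2 left 12 that fell. Scaled to the macrophage markers, 122 were higher and 4 lower, and the median was 0.96, beside the median of 0.92 for all tested genes. A fall smaller than that shift changes sign under this scaling. Of the 36 named genes that passed, 14 did so in each of the 6 cases. All adjusted p-values below are from edgeR over all tested genes.

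Of 12 tested genes of TREM2 signalling, 4 fell and 8 did not pass, with a median log2 fold change of -0.39, which became 0.54, with 9 higher, when scaled to the macrophage markers. Tyrobp, which encodes the adaptor DAP12 and is itself among the 15 macrophage markers, averaged 144 ± 7.02 CPM in old and 193 ± 10.1 CPM in young libraries (log2 fold change -0.42, SE 0.08, adjusted p = 0.0164). Inpp5d, encoding the phosphatase SHIP1 that restrains this pathway, fell by 0.60 on the log2 scale (SE 0.10, adjusted p = 0.0109). The adaptor gene Blnk (log2 fold change -0.53, adjusted p = 0.0271) and Adam17 (log2 fold change -0.34, adjusted p = 0.0379), a protease that sheds TREM2 from the surface, fell as well. The Inpp5d call held on leaving out any library. The Tyrobp and Adam17 calls ended on leaving out any 1 library except young replicate 3 (highest adjusted p 0.0819 and 0.162), and that of Blnk without each old replicate and young replicate 2 (highest adjusted p 0.110). The list had 2 genes lower without young replicate 1, and 1 without young replicate 2 or any 1 old replicate. Counts of Trem2 per kilobase were 0.164, 0.157 and 0.142 times those of Tyrobp in old libraries, and 0.109, 0.127 and 0.120 times in young ones, so that the ratio was higher in every old library. The size of this ratio rests on the lengths used, 4.78 kilobases for Trem2 and 0.564 for Tyrobp, while its direction between the ages does not.

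Of 10 other TREM and CD300 receptors, which are immunoglobulin-type receptors of myeloid cells, 1 rose and 1 fell. Cd300lb, an activating receptor, averaged 99.0 ± 5.71 CPM in old and 58.8 ± 3.55 CPM in young libraries (log2 fold change 0.75, SE 0.09, adjusted p = 0.00275). Cd300lf, an inhibitory receptor, fell by 1.19 on the log2 scale (SE 0.23, adjusted p = 0.0204), a call that ended on leaving out old replicate 1 or 2 or young replicate 1 or 2 (highest adjusted p 0.0932). Of this list 2 rose without old replicate 3 and 2 fell without young replicate 3.

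Of 20 other genes of lipid-associated macrophages, 11 rose and 9 did not pass, with a median log2 fold change of 0.57. The share that rose over all tested genes was 5.84%. Since the list was chosen with earlier results of these data known, nothing is read from its count. The count was 6 without old replicate 1 or 2, and 7 without young replicate 1. Mmp12, a macrophage elastase, had 856, 834 and 1365 CPM in old replicates 1, 2 and 3, against 126, 235 and 99.3 CPM in young replicates 1, 2 and 3 (log2 fold change 2.73, SE 0.36, adjusted p = 0.00459). Atp6v0d2, a proton pump subunit of macrophages and osteoclasts, averaged 261 ± 19.0 CPM in old and 42.8 ± 13.8 CPM in young libraries (log2 fold change 2.61, SE 0.23, adjusted p = 0.00112). It is also 1 of the 10 osteoclast markers. Itgax, encoding CD11c, which dendritic cells carry too, had a log2 fold change of 2.40 (SE 0.22, adjusted p = 0.00133). The lysosomal protease gene Ctsl had one of 1.61 (SE 0.15, adjusted p = 0.00133), although 26.9% of its exon length is shared with other gene models. These 4 calls held on leaving out any library.

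Of 13 other scavenger and lipoprotein receptors, 6 fell and 7 did not pass, with a median log2 fold change of -0.42, which became 0.51, with 7 higher and 2 lower, when scaled to the macrophage markers. The mannose receptor Mrc1, a macrophage marker as well, fell by 0.97 on the log2 scale (SE 0.09, adjusted p = 0.00115). Vldlr, a receptor for triglyceride-rich lipoproteins, averaged 6.50 ± 1.30 CPM in old and 20.5 ± 4.80 CPM in young libraries (log2 fold change -1.66, SE 0.23, adjusted p = 0.00536). Both calls held on leaving out any library. Marco, a collagen-like scavenger receptor of macrophages, had 0.0456, 0.312 and 0.722 CPM in old replicates 1, 2 and 3, against 7.91, 9.05 and 4.61 CPM in young replicates 1, 2 and 3. Its log2 fold change of -4.35 (SE 0.70, adjusted p = 0.0101) became -5.35 without old replicate 3, and missed the threshold once old replicate 2 was left out (adjusted p = 0.0549). Cxcl16, a chemokine that in its membrane form binds oxidised lipoproteins, fell by 0.66 (SE 0.12, adjusted p = 0.0151), a call that ended on leaving out old replicate 2 or 3 or young replicate 1 or 2 (highest adjusted p 0.0681), and 18.3% of its exon length is shared with Zmynd15. The count for the list was 2 without old replicate 2 and 3 without old replicate 3. Counts of Cd36 per kilobase were 0.800, 0.795 and 0.717 times those of the scavenger receptor gene Msr1 in old libraries, and 0.282, 0.304 and 0.291 times in young ones. Msr1 is itself 1 of the 6 that fell (log2 fold change -0.42, SE 0.10, adjusted p = 0.0374), so both genes enter the difference in this ratio. The Msr1 call ended on leaving out any 1 library except young replicate 3 (highest adjusted p 0.158).

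Of 11 genes that control lipoprotein lipase, 7 were tested, 2 fell and 5 did not pass, and Apoc3, Apoa5 and Angptl8 had no count in any library. Apoc2, encoding the activator of the enzyme, averaged 1.52 ± 0.353 CPM in old and 4.05 ± 0.506 CPM in young libraries (log2 fold change -1.41, SE 0.24, adjusted p = 0.0124), but 79.5% of its exon length is shared with Gm44805. Gpihbp1, encoding the endothelial anchor of the enzyme, fell by 2.57 on the log2 scale (SE 0.48, adjusted p = 0.0167) at levels under 3 CPM, a call that ended on leaving out old replicate 1 or 2 or young replicate 2 (highest adjusted p 0.0740). The count was 1 without old replicate 1 or 2 or young replicate 2.

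Of 11 tested fatty acid binding proteins, acyl-CoA synthetases and fatty acid transport proteins other than the members, 1 rose and 3 fell. Acsl3, the synthetase of the endoplasmic reticulum and lipid droplets, averaged 47.9 ± 1.89 CPM in old and 96.7 ± 8.41 CPM in young libraries (log2 fold change -1.01, SE 0.09, adjusted p = 0.00124). Fabp7, the brain-type carrier, averaged 7.28 ± 0.788 CPM in old and 2.51 ± 0.634 CPM in young libraries (log2 fold change 1.54, SE 0.22, adjusted p = 0.00712). The calls of Acsl3 and Fabp7 held on leaving out any library. Slc27a3, of the fatty acid transport protein family, fell by 0.71 (SE 0.12, adjusted p = 0.0113), which rested on old replicates 2 and 3 (highest adjusted p 0.0590 on leaving out either). Fabp3, the heart-type carrier, fell by 0.90 (SE 0.18, adjusted p = 0.0231), a call that ended on leaving out any old replicate or young replicate 1 (highest adjusted p 0.0860), with 19.6% of its exon length shared with other genes. The number that fell was 1 without old replicate 2 or 3. Fabp1, Fabp2 and Fabp6, the liver and intestinal carriers, had no count in any library. Per kilobase, counts of Acsl1 were 0.161 to 0.202 times those of its relative Acsl5 in old and 0.146 to 0.184 times in young libraries, and the ranges overlapped.

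Of 18 tested genes of lipid droplets, 1 rose and 17 did not pass, with a median log2 fold change of 0.15. Plin2, encoding the droplet coat protein perilipin 2, had 476, 489 and 444 CPM in old replicates 1, 2 and 3, against 278, 334 and 321 CPM in young replicates 1, 2 and 3 (log2 fold change 0.60, SE 0.09, adjusted p = 0.00900). It missed the threshold once old replicate 2 was left out (adjusted p = 0.0510), and 3 genes of the list passed without young replicate 3. Of 14 genes of fatty acid oxidation, 2 rose and 12 did not pass. Acadm, the medium-chain acyl-CoA dehydrogenase, had a log2 fold change of 0.38 (SE 0.08, adjusted p = 0.0313). Its call ended on leaving out any 1 library except young replicate 3 (highest adjusted p 0.131), and without that one 3 genes of the list passed.

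Of 10 genes of cholesterol efflux and its control, 1 rose and 3 fell. Abca1, the transporter that loads cholesterol onto apolipoproteins, had 38.8, 39.0 and 40.1 CPM in old replicates 1, 2 and 3, against 111, 88.3 and 99.2 CPM in young replicates 1, 2 and 3 (log2 fold change -1.34, SE 0.10, adjusted p = 0.00071). The old libraries lay close together and well below the young ones, and the call held on leaving out any library. Srebf1, a transcription factor of fatty acid synthesis, fell by 0.63 on the log2 scale (SE 0.11, adjusted p = 0.0138), a call that ended on leaving out old replicate 1 or 2 (highest adjusted p 0.0739). Mylip, encoding the ligase IDOL that degrades the LDL receptor, fell by 0.49 (SE 0.11, adjusted p = 0.0387), a call that ended on leaving out any 1 library except young replicate 3 (highest adjusted p 0.147). Lipa, the lysosomal acid lipase, averaged 831 ± 62.6 CPM in old and 554 ± 59.7 CPM in young libraries (log2 fold change 0.59, SE 0.10, adjusted p = 0.0144), a call that ended on leaving out old replicate 1 or 2 or young replicate 1 (highest adjusted p 0.0706). Apoe, a lipoprotein component and ligand of TREM2, is named outside the rule, after its values were seen. It stood at 273, 225 and 219.9 CPM in old replicates 1, 2 and 3, against 265, 298 and 505 CPM in young replicates 1, 2 and 3, and did not pass (log2 fold change -0.57, adjusted p = 0.202). The number that fell was 1 without old replicate 1 or 2.

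Of 10 tested nuclear receptors and partners that govern lipid genes, 4 rose and 6 did not pass, with a median log2 fold change of 0.32. Pparg, the nuclear receptor known to drive Cd36, Fabp4 and Lpl in other settings, had 65.5, 67.1 and 59.0 CPM in old replicates 1, 2 and 3, against 31.6, 29.7 and 37.6 CPM in young replicates 1, 2 and 3 (log2 fold change 0.95, SE 0.11, adjusted p = 0.00325). Cebpa, encoding a myeloid and adipocyte transcription factor, had 127, 129 and 131 CPM in old replicates 1, 2 and 3, against 56.1, 59.8 and 66.3 CPM in young replicates 1, 2 and 3 (log2 fold change 1.09, SE 0.09, adjusted p = 0.000787). The calls of Pparg and Cebpa held on leaving out any library. Nr1h3, encoding the oxysterol receptor LXR alpha, rose by 0.76 (SE 0.13, adjusted p = 0.0108), a call that ended on leaving out old replicate 1 or 2 (highest adjusted p 0.0541). Cebpb rose by 0.87 (SE 0.21, adjusted p = 0.0449), a call that ended on leaving out any 1 library except young replicate 2 (highest adjusted p 0.158), and 20.7% of its exon length is shared with Tmem189. The list had 2 genes higher without old replicate 1 or 2.

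Of 8 genes of the MiT/TFE factors, which switch on lysosomal genes and are known regulators of Gpnmb, and of their control, 1 fell and 7 did not pass. Flcn, encoding folliculin, which keeps TFEB and TFE3 out of the nucleus, fell by 0.49 on the log2 scale (SE 0.08, adjusted p = 0.0114), a call that ended on leaving out old replicate 1 or 3 (highest adjusted p 0.0619). Without young replicate 3, 1 gene of this list rose and 2 fell. Of 5 relatives and surface partners of GPNMB, 1 rose. Sdc4, encoding a heparan sulfate proteoglycan that GPNMB binds, averaged 104 ± 3.03 CPM in old and 58.5 ± 13.0 CPM in young libraries (log2 fold change 0.83, SE 0.15, adjusted p = 0.0157), a call that ended on leaving out any 1 old replicate or young replicate 1 (highest adjusted p 0.0617). Without young replicate 3, 2 genes of the list rose and 1 fell.

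Of 12 other tetraspanins and partners of CD9, 1 rose. Tspan4, a tetraspanin of migrating cells, averaged 246 ± 7.93 CPM in old and 200.1 ± 3.24 CPM in young libraries (log2 fold change 0.30, SE 0.07, adjusted p = 0.0322). Its call ended on leaving out any 1 library except young replicate 3 (highest adjusted p 0.142), and 13.4% of its exon length is shared with Chid1. Of the 4 tested genes of lysosomal membrane glycoproteins set beside Cd68, 0 passed with edgeR, with 1 at an unadjusted p under 0.05. With DESeq2 and with limma-voom 0 passed, and with edgeR 1 fell without young replicate 3. The most abundant were Lamp1, with 1140.2 ± 45.1 CPM in old and 1375 ± 205 CPM in young libraries (adjusted p = 0.215), and Cd63, with 1093 ± 34.8 CPM in old and 1118 ± 99.2 CPM in young libraries (adjusted p = 0.882). Of 7 actin-binding genes set beside Aif1, 2 rose and 5 did not pass. Wdr1, which aids actin disassembly, had a log2 fold change of 0.44 (SE 0.08, adjusted p = 0.0168), and the actin-bundling Fscn1 had one of 0.58 (SE 0.13, adjusted p = 0.0326). Both calls ended on leaving out any 1 library except young replicate 3 (highest adjusted p 0.0909 and 0.121), and 1 gene of the list fell without young replicate 1 or young replicate 3.

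**Figure D4:**
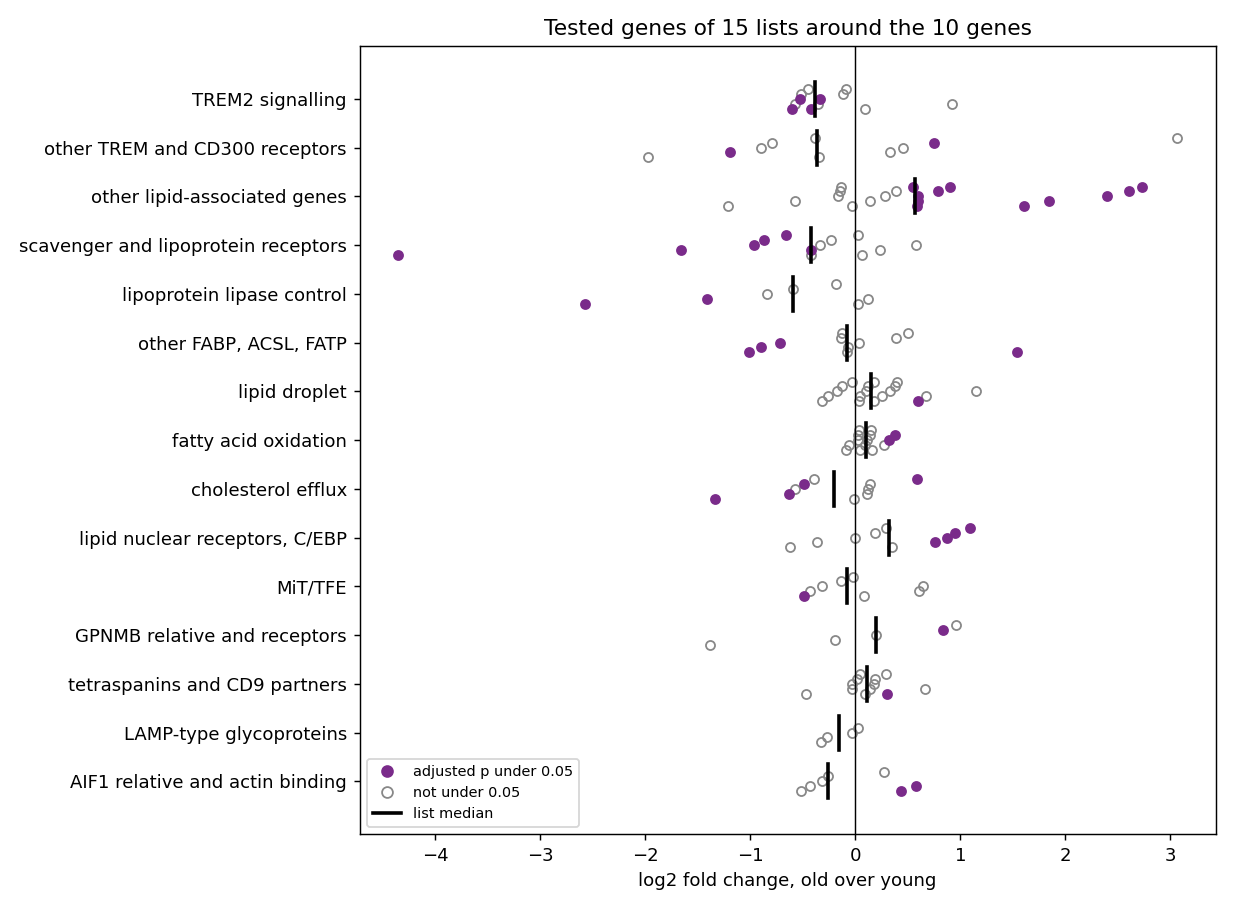
Log2 fold changes of old over young libraries for the tested genes of each of the 15 lists, 1 point a gene, with filled points for genes at an adjusted p under 0.05 (edgeR, 3 libraries per age) and a bar at the list's median. In the list of other lipid-associated macrophage genes 11 of 20 points are filled, all to the right of 0. In that of scavenger and lipoprotein receptors 6 of 13 are filled, all to the left. Over all tested genes 5.84% were higher and 4.70% lower, and the lists were chosen with earlier results of these data known.

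The genes most like Gpnmb, Trem2 and Cd36 across the 6 libraries were searched among 4289 genes with a mean of at least 50 CPM, by the Pearson correlation of log2(CPM + 1). The 6 points share the age difference, so genes that differ between the ages correlate for that reason alone, and the values are a description. For Gpnmb the 3 highest were Nectin2 (r = 0.999), Crim1 (r = 0.998) and Lrrc32 (r = 0.998). Lrrc32 stood at 410, 457 and 452 CPM in old replicates 1, 2 and 3, against 57.6, 84.2 and 98.7 CPM in young replicates 1, 2 and 3, with young replicate 1 lowest as for Gpnmb. For Cd36 they were Pf4 (r = 0.997), Zadh2 (r = 0.996) and Myd88 (r = 0.996). Pf4, a platelet chemokine that macrophages also make, stood at 190, 191 and 188 CPM in old replicates 1, 2 and 3, against 48.7, 68.8 and 41.6 CPM in young replicates 1, 2 and 3. For Trem2 the highest were Rraga (r = 0.974) and Txnl4a (r = 0.968), whose levels, like those of Trem2, overlapped between the ages.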

How the data were processed

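RNA was measured in 3 old and 3 young libraries, grouped by the age label. The deposited values are whole-number counts per gene, which the authors made on the mm10 build. The submitters' processing notes name, without their roles, STAR 2.6.1a and HISAT2 2.1.0, StringTie 1.3.4d, Trim Galore 0.50 and cutadapt 1.18, SAMtools 1.9 and Picard 2.18.15. The counter, its strand setting and its handling of multi-mapping reads were not given in the sources used here. Per the labels' protocols, the SMART-Seq v4 kit was used, which does not mark strand, so reads of overlapping genes may be shared. Shares of exon length that overlap another gene are given for the members, the named pathway genes and the markers Adrb3 and Selp where they are above 10%. Symbols were matched to 37607 of 39017 identifiers with GENCODE release M21.

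Counts were filtered with filterByExpr, scaled with TMM (trimmed mean of M values) and tested with edgeR 4.0.16 in R 4.3.3 (glmQLFit with robust estimation, glmQLFTest). P-values were adjusted over 15567 genes by the method of Benjamini and Hochberg, with a threshold of 0.05. The members and lists were chosen with earlier results of these data known. Therefore the members are described without a test, and no p-value is adjusted over a list. CPM were computed with TMM library sizes. The p-values refer only to the spread among these 6 libraries. Named genes were all members, up to 4 called genes with the smallest p per pathway list, or the 2 most abundant where none passed, the 3 genes most like Gpnmb, Trem2 and Cd36, and called or undetected markers. Some genes that this rule names are not reported here. The alternatives were other scaling factors, DESeq2 1.42.0, limma-voom 3.58.1, other filters, a replicate block and leaving out each library. Counts for single lists and marker lists without each library, and the osteoclast sum without Atp6v0d2, were added after seeing the data. As a check of the code only, the fit was run on simulated counts with known changes. These counts were drawn independently for each library, so that run says nothing about mixed cells or young replicate 3. Amplified reads are not independent molecules, so a limit from a count of 0 covers counting error only.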

Additional observations from a re-analysis of the deposited data

How the results depend on the processing

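Under the alternatives run, other than scaling to the macrophage markers, the log2 fold change of each of the 10 genes moved by less than the spread between replicates. With DESeq2's own test 1331 genes were higher and 1137 lower in old libraries, against 909 and 731 with edgeR, and of the 10 genes 5 instead of 4 were higher and 2 instead of 1 lower. With no low-count filter 3 of the 10 were higher, since Lpl did not pass. Leaving out 1 library gave 418 to 1459 genes higher and 294 to 1168 lower. It gave 10 to 30 pathway genes higher and 7 to 26 lower, 3 to 5 of the 10 genes higher and 0 to 1 lower, the 0 without old replicate 2. The largest counts over all genes came without young replicate 3, and the cause was not tested. The log2 fold change of Cd63, -0.03 with all libraries, ran from -0.091 without young replicate 3 to 0.035 without young replicate 1.

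The labels do not say that equal replicate numbers pair libraries, and the correlations of deviations between same-numbered libraries were 0.129, 0.034 and 0.158, although 5 of the 6 libraries correlated best with their own number, a hint from the data and not the design. With the replicate number as a block, 711 genes were higher and 575 lower, 19 pathway genes were higher and 13 instead of 20 were lower. Of the 36 named pathway genes that passed, 8 did not pass under the block, among them Adam17, Cd300lf, Cebpb, Fabp3, Gpihbp1, Mylip and Tspan4. With library totals alone Adam17 and Mylip did not pass, and with no low-count filter Cebpb did not (adjusted p = 0.0501). The 3 libraries per age limit what small differences such as those of Cd9, Fabp5 and Cd68 can show.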
